A study of Homo sapiens with 18 samples.

Results

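HOX genes encode homeodomain transcription factors and lie in 4 clusters of the human genome. The HOX genes analysed were the 34 protein-coding genes of the deposited tables named HOXA, HOXB, HOXC or HOXD followed by a number, out of 31004 genes listed. They comprised 11 HOXA genes on chromosome 7, 10 HOXB genes on chromosome 17, 8 HOXC genes on chromosome 12 and 5 HOXD genes on chromosome 2, chosen by name and gene type alone. RNA of HCT116 cells, a long-used line from a human colorectal carcinoma, was sequenced in 18 libraries, 3 in each of 6 groups. The cells had 1 of 3 backgrounds, the empty control, overexpression of the long noncoding RNA CRLM1, for which the study describes a lentiviral vector and stable lines, or the antisense control. Each background received HNRNPK overexpression or a negative control, which gave Ctrl_NC, CRLM1_NC and Antisense_NC without the construct and Ctrl_hnRNPK, CRLM1_hnRNPK and Antisense_hnRNPK with it. The protein hnRNPK binds C-rich nucleic acids. A group is therefore a manipulated culture of a single cell line, and whether a line came from 1 clone is not given in the sources used here. The labels number the replicates without naming separate cultures, so p-values measure the spread between these libraries, which may be technical.

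Genes of a HOX cluster are arranged in the order in which they act along the body axis. Paralog numbers 1 to 3 are called anterior here, 4 to 8 central and 9 to 13 posterior, and genes with the same number in different clusters are related copies. HOX proteins bind short sites with a TAAT core, often together with TALE homeodomain partners such as the PBX and MEIS proteins. In the gut epithelium HOX genes keep a regional pattern along the intestine, and CDX2, an intestinal homeodomain factor, is a known regulator of them.

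The promoters of 4 HOX genes that passed a test below are shown, since neighbouring genes of the HOXA cluster moved in opposite directions and HOXD8 was the HOXD gene that was expressed. Each is 300 bases from RefSeq on GRCh38.p14, 250 before and 50 after the annotated start, written 5′ to 3′ on the gene's strand. The capitals mark the homeodomain core TAAT on either strand. HOXA4 lies at chr7:27130708-27131007 (minus strand), HOXA7 at chr7:27156626-27156925 (minus strand), HOXA9 at chr7:27165488-27165787 (minus strand) and HOXD8 at chr2:176129455-176129754 (plus strand), where these positions are those of the printed windows.
HOXA4: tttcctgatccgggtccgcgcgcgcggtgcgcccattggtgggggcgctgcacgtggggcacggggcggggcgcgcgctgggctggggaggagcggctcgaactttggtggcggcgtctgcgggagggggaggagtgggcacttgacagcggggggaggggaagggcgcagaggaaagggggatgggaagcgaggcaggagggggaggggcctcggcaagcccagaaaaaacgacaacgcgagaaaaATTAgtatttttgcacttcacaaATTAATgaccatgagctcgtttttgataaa
HOXA7: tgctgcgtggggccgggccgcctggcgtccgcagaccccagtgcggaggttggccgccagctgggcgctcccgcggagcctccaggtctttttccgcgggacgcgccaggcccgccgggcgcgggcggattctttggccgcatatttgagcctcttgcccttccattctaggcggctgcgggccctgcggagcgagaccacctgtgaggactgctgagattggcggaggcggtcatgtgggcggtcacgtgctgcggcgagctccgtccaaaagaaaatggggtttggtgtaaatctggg
HOXA9: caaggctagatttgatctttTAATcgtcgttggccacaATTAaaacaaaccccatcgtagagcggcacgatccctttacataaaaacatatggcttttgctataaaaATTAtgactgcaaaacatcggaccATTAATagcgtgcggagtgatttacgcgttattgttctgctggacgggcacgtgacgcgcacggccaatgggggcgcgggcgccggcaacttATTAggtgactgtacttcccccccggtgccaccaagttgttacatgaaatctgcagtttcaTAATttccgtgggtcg
HOXD8: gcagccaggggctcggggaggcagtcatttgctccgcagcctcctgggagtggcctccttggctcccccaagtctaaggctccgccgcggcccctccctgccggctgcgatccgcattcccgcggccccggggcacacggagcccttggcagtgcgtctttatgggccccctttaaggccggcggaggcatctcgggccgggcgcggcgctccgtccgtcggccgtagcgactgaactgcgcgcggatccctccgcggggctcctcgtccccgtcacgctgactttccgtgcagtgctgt
The core occurred 3 times in the HOXA4 window, 7 times in that of HOXA9, and had no match in those of HOXA7 and HOXD8. It was present in 50.2% of 35116 RefSeq promoters of the same length and in 18 of 23 distinct HOX windows, which covered 17 of the 34 HOX genes matched by symbol. The letters CCCC, of the kind hnRNPK binds in RNA and single-stranded DNA, had 17 matches on both strands together in HOXA4, 3 in HOXA7, 7 in HOXA9 and 11 in HOXD8, where longer runs count once for each start. CCCC was found in 89.6% of all promoters, with a median of 5 matches. The HOX and PBX composite site TGATTNAT had no match in the 4 windows and was found in 2.8% of all promoters, and TATAAA matched once, in HOXA9, against 11.5% of all promoters. TGATTNAT can overlap a TAAT core. The GC content of the windows was 63.3% for HOXA4, 68.0% for HOXA7, 48.0% for HOXA9 and 71.7% for HOXD8, with 27, 31, 22 and 34 CG dinucleotides. These matches describe the letters in the windows and were not tested against expression.

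Total counts per library ranged from 19732681 to 27039520, of which HOX genes took 3421 to 5301 counts, or 0.0171% to 0.0226%. A count of 0 in a library allows up to 3 counts, which is 0.0972 to 0.165 normalised CPM (counts scaled to library size). Such limits cover counting error only. Of 8 fixed epithelial markers, 7 had counts above this limit and their summed FPKM ran from 1842 to 3511, while 3 blood markers in the table had 0 above it and mesenchymal markers summed to 1.71 to 3.91 FPKM. Of the epithelial markers, LGALS4, VIL1 and CEACAM5 had group means of at most 0.0833 FPKM. The CRLM1 gene (RP4-710M16.2 in the tables) was listed at 0 FPKM on average in both Ctrl groups, at 800 and 835 FPKM in CRLM1_NC and CRLM1_hnRNPK, and at 72.7 and 73.2 FPKM in Antisense_NC and Antisense_hnRNPK. Since the use of strand in counting is not given in the sources used here, reads of the transcript and of its antisense cannot be told apart in these values. HNRNPK measured 463, 471 and 480 CPM in Ctrl_NC and 617, 644 and 491 CPM in Ctrl_hnRNPK. It measured 461, 454 and 455 CPM in CRLM1_NC against 671, 713 and 571 in CRLM1_hnRNPK, and 432, 434 and 424 CPM in Antisense_NC against 540, 532 and 583 in Antisense_hnRNPK. It was higher in every hnRNPK library than in every NC library of its background, and over all 3 libraries it passed the test in the antisense background (0.35 ± 0.07, adjusted p = 0.000839) and missed it in the Ctrl and CRLM1 backgrounds (adjusted p = 0.362 and 0.533). Without the third hnRNPK library it passed in the Ctrl (0.44 ± 0.05, adjusted p = 9.91e-07) and CRLM1 (0.65 ± 0.05, adjusted p = 1.97e-12) backgrounds as well. With the trend in GC content and length across genes removed, none of the 3 passed, and the log2 fold change turned to -0.18 ± 0.08, adjusted p = 0.0860 in the antisense and -0.04 ± 0.08, adjusted p = 0.860 in the Ctrl background, against 0.28 ± 0.09, adjusted p = 0.196 in the CRLM1 background. The third Ctrl_hnRNPK library correlated with its own replicates at 0.954 to 0.960 (Pearson's r across genes) and the third CRLM1_hnRNPK library at 0.946 to 0.953, where all other pairs within a group reached at least 0.988. The study left these 2 libraries out, and results are given with and without them.

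A HOX gene was counted as expressed where its mean FPKM, the authors' count per length and depth, reached 1 in at least 1 group. Of the 34 HOX genes, 15 were expressed in HCT116. These were 5 of 11 HOXA genes (HOXA3, HOXA7, HOXA9, HOXA10 and HOXA11), 8 of 10 HOXB genes (HOXB3 to HOXB9 and HOXB13), 1 of 8 HOXC genes (HOXC9) and 1 of 5 HOXD genes (HOXD8). The number rose to 20 at an FPKM of 0.5 and to 27 at 0.1, and was 21 at a mean of 1 CPM. Of the 15, HOXA7 (0.74 FPKM), HOXB3 (0.79), HOXB13 (0.647) and HOXD8 (0.55) were below 1 FPKM in Ctrl_NC. By position, 2 of 7 anterior, 7 of 14 central and 6 of 13 posterior genes were expressed, and they took 5.18%, 47.5% and 47.3% of the summed HOX FPKM with the unexpressed genes of their band.

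HOXA9, which acts in posterior patterning and blood progenitors, had the highest level, at 14.2 FPKM averaged over the 18 libraries. HOXB8 and HOXB9 followed at 9.85 and 9.78 FPKM, and which of the pair was higher differed between groups. HOXB7 (6.99 FPKM), HOXB6 (5.42), HOXB4 (3.07), HOXA10 (2.26) and HOXC9 (1.70) came next. Among 16451 protein-coding genes HOXA9 stood at the 82.9th percentile of mean FPKM, HOXB8 at the 77.6th and HOXC9 at the 47.6th, and 7 of the 34 HOX genes stood above the 50th percentile. In Ctrl_NC the level was 11.5 ± 1.36 FPKM for HOXA9 and 11.1 ± 0.699 for HOXB8 (SD, n = 3), which overlapped, while HOXB9 was at 7.92 ± 1.00. In Antisense_NC HOXA9 was at 16.5 ± 0.431 FPKM, HOXB9 at 10.8 ± 1.25 and HOXB8 at 7.18 ± 0.686.

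**Figure D1:**
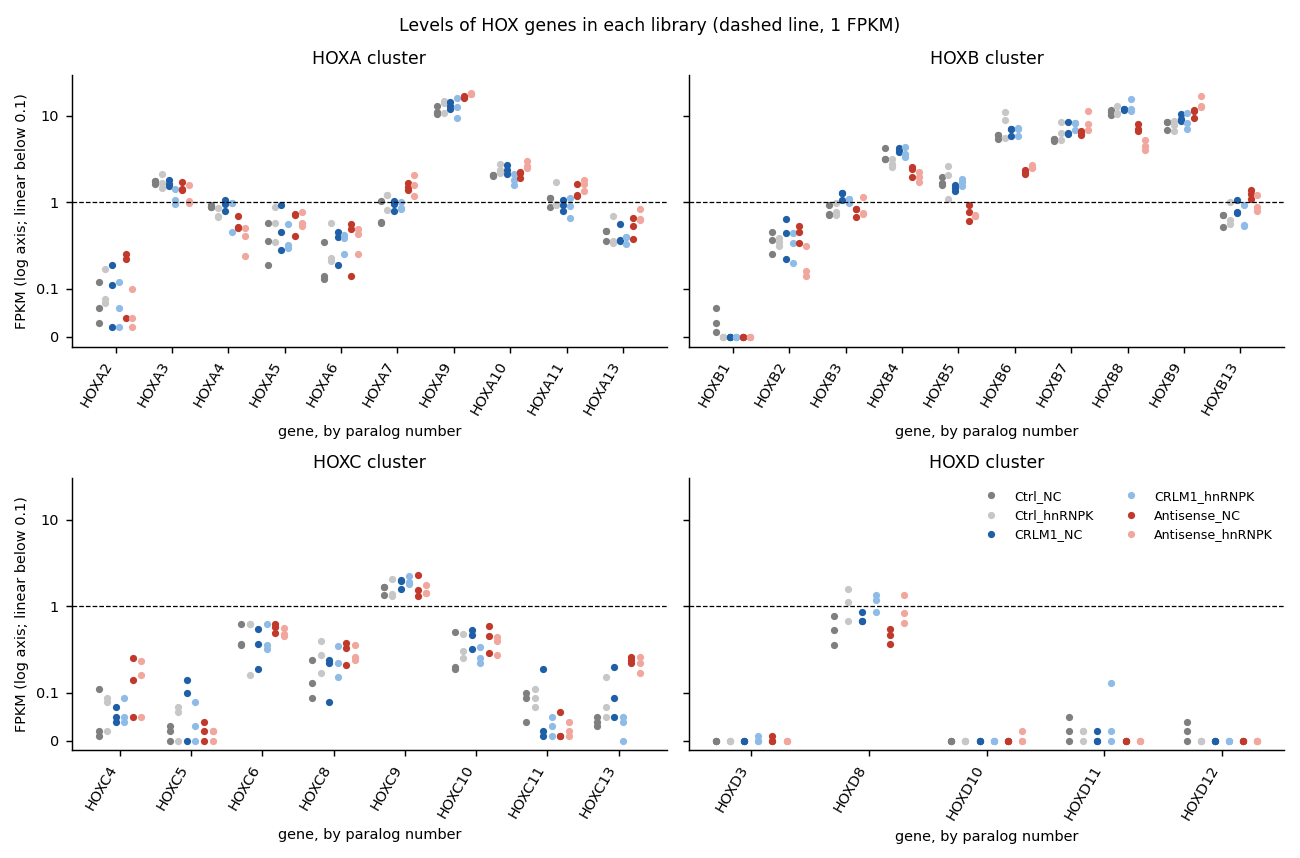
FPKM of 33 HOX genes in each of the 18 libraries, 1 panel per cluster and genes ordered by paralog number, on a log axis that is linear below 0.1. Points are single libraries coloured by group and the dashed line marks 1 FPKM. HOXA9 and HOXB6 to HOXB9 stand highest, and HOXD8 is the HOXD gene with counts in all libraries.

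The 19 remaining HOX genes were below 1 FPKM in all 6 groups. HOXA4, HOXA5, HOXA6 and HOXA13 had group means of 0.207 to 0.943 FPKM, and HOXA2 of 0.0533 to 0.170. HOXC6, HOXC8 and HOXC10 had group means of 0.153 to 0.567 FPKM, HOXC4, HOXC11 and HOXC13 of 0.0233 to 0.240, and HOXC5 of 0.0133 to 0.0800. HOXB2 reached 0.203 to 0.440 FPKM. HOXB1, a hindbrain gene, had counts in 3 libraries, all of Ctrl_NC, with a highest count of 4. HOXD3, HOXD10 and HOXD12 had a highest count of 1, 1 and 2, at or under the limit of 3, and HOXD11 one of 5. HOXB1 and these HOXD genes were not detectable at this depth in most libraries. In all, 27 HOX genes had counts in all 18 libraries, which left 7 without.

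Summed over a cluster, HOXB genes took most of the HOX signal. In Ctrl_NC the HOXB sum was 37.2 ± 2.25 FPKM, or 62.0% of all HOX FPKM, and the HOXA sum was 19.5 ± 1.46, or 32.6%. CRLM1_NC had 43.1 ± 2.10 FPKM from HOXB and 22.1 ± 0.784 from HOXA, with shares of 62.4% and 32.0%. In Antisense_NC the HOXB sum was 32.0 ± 1.49 and the HOXA sum 25.8 ± 0.315, with shares of 51.9% and 41.8%. The HOXB sum of Antisense_NC, 30.3 to 33.1 FPKM, lay below all Ctrl_NC values (34.6 to 38.8), and its HOXA sum, 25.5 to 26.1, lay above all of them (18.1 to 21.1). HOXC genes summed to 2.63 to 3.47 and HOXD genes to 0.463 to 1.17 FPKM across group means. The authors' FPKM and the CPM used for the tests differ by a factor for each library, set to 1 for the mean of Ctrl_NC, which was 1.04 to 1.05 in CRLM1_NC, 1.13 to 1.14 in Antisense_NC and 1.29 to 1.43 in Antisense_hnRNPK. HOXA9 was therefore higher in FPKM in Antisense_hnRNPK than in Antisense_NC (18.1 ± 0.180 against 16.5 ± 0.431) and lower in CPM. All 31 calls between pairs of groups given below had the same direction in mean FPKM. The sums are descriptions and were given no test. In bulk RNA, fewer cells that express a gene and less RNA per cell cannot be told apart.

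Spans of HOX genes overlap, so reads near the shared parts may be split between genes. On the Gencode v44 annotation HOXB3 (chr17:48548870-48604912) spans HOXB4 (chr17:48575507-48578350), HOXB5 (chr17:48591257-48593779) and most of HOXB6 (chr17:48595751-48604992). HOXB7 (chr17:48607232-48633572) spans HOXB8 (chr17:48611377-48615292) and HOXB9 (chr17:48621156-48626358). HOXA9 (chr7:27162438-27175180) overlaps HOXA10 (chr7:27170605-27180261), and HOXA3 (chr7:27106184-27152583) spans HOXA4 (chr7:27128507-27130780), HOXA5 and HOXA6. HOXC6 (chr12:53990624-54030823) spans HOXC8 and HOXC9 (chr12:53994895-54003337) and overlaps HOXC4, which spans HOXC5. The values of these genes, and of those with antisense partners, are uncertain to the extent that the authors' counting, whose use of strand is not given in the sources used here, shared reads among them.

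The comparison of Antisense_NC with Ctrl_NC asks what the antisense control did beside the empty control. A HOX gene passed at an adjusted p of at most 0.05 (edgeR's quasi-likelihood test, Benjamini-Hochberg over all genes tested), and log2 fold changes are given ± SE. Of 25 HOX genes tested, 5 were higher in Antisense_NC (HOXA7, HOXA9, HOXB9, HOXB13 and HOXC13) and 6 were lower (HOXA3, HOXA4, HOXB4, HOXB5, HOXB6 and HOXB8). HOXC13 entered the test through its Antisense_NC counts alone, so it had to differ and its place among the 5 is no support for a rise. Of all 14389 genes tested, 66.5% passed, 34.4% higher and 32.2% lower, so 11 of 25 HOX genes, HOXC13 included, is a smaller share than over all genes. Changes of at least 2-fold were found in HOXB5 and HOXB6, beside HOXC13, against 14.1% of all genes. The median log2 fold change was 0.05 over the HOX genes tested and -0.0025 over all genes. The GC content of genes correlated with the log2 fold change at a Spearman rho of -0.30 across 14223 genes, and with the GC and length trend removed 5 HOX genes were higher and 6 lower, where 64.7% of all genes passed, 32.1% higher and 32.6% lower. The HOX genes tested had a median of 3.45 CPM against 15.3 CPM over all genes tested.

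HOXB6, a gene of the trunk and lung primordium, had the largest fall in Antisense_NC of the 25 HOX genes tested. It measured 15.1, 16.7 and 17.0 CPM in Ctrl_NC, 19.1, 15.7 and 18.9 CPM in CRLM1_NC and 5.51, 5.74 and 5.22 CPM in Antisense_NC. All 3 Antisense_NC libraries lay below every other NC library, and HOXB6 was 3.06-fold lower than in Ctrl_NC (log2 fold change -1.61 ± 0.12, adjusted p = 2.35e-14). With the hnRNPK construct HOXB6 measured 23.02, 27.9 and 16.0 CPM in Ctrl_hnRNPK, 18.1, 17.7 and 17.3 CPM in CRLM1_hnRNPK and 5.23, 5.35 and 5.57 CPM in Antisense_hnRNPK, and the antisense libraries were again the lowest.

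HOXB5, which acts in enteric neural crest and lung, measured 4.85, 4.68 and 5.75 CPM in Ctrl_NC, 3.82, 4.08 and 4.44 CPM in CRLM1_NC and 1.98, 2.41 and 1.59 CPM in Antisense_NC. The Antisense_NC values were all below the others, 2.62-fold lower than Ctrl_NC (-1.39 ± 0.20, adjusted p = 2.22e-07). Its hnRNPK libraries measured 5.53, 6.87 and 3.22 CPM in Ctrl_hnRNPK, 4.57, 4.03 and 5.71 CPM in CRLM1_hnRNPK and 1.52, 1.46 and 1.56 CPM in Antisense_hnRNPK.

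HOXB8, a regulator of trunk patterning and myeloid progenitors, measured 29.2, 26.9 and 30.4 CPM in Ctrl_NC, 29.1, 30.5 and 29.5 CPM in CRLM1_NC and 15.1, 18.1 and 16.1 CPM in Antisense_NC. Ctrl_NC and CRLM1_NC overlapped, and Antisense_NC lay below both (-0.86 ± 0.09, adjusted p = 9.49e-11). With hnRNPK it measured 25.9, 24.5 and 34.6 CPM in Ctrl_hnRNPK, 27.9, 26.9 and 42.6 CPM in CRLM1_hnRNPK and 8.71, 9.59 and 8.14 CPM in Antisense_hnRNPK. The Antisense_hnRNPK libraries were the lowest of all 18.

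HOXB4, known for its effect on blood stem cells, measured 22.6, 16.8 and 16.9 CPM in Ctrl_NC, 21.9, 19.8 and 20.4 CPM in CRLM1_NC and 12.1, 9.20 and 11.6 CPM in Antisense_NC. It was lower in Antisense_NC than in Ctrl_NC without overlap (-0.82 ± 0.12, adjusted p = 2.19e-07). The hnRNPK libraries measured 12.7, 13.5 and 17.3 CPM in Ctrl_hnRNPK, 16.3, 17.5 and 24.4 CPM in CRLM1_hnRNPK and 9.17, 7.35 and 7.13 CPM in Antisense_hnRNPK.

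HOXA4, a central gene with lower counts, measured 2.20, 2.36 and 2.18 CPM in Ctrl_NC, 2.34, 1.91 and 2.55 CPM in CRLM1_NC and 1.51, 1.14 and 1.13 CPM in Antisense_NC. The 3 Antisense_NC libraries were again below the other 6 (-0.88 ± 0.27, adjusted p = 0.00467), and its printed promoter held 3 TAAT cores. In the hnRNPK groups HOXA4 measured 1.60, 1.94 and 1.71 CPM in Ctrl_hnRNPK, 2.20, 2.21 and 1.20 CPM in CRLM1_hnRNPK and 0.455, 0.713 and 0.974 CPM in Antisense_hnRNPK.

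HOXA3, which patterns pharyngeal and neck structures, measured 9.20, 8.52 and 9.14 CPM in Ctrl_NC, 7.77, 8.30 and 9.02 CPM in CRLM1_NC and 6.55, 7.94 and 6.4997 CPM in Antisense_NC. Antisense_NC lay below Ctrl_NC (-0.40 ± 0.13, adjusted p = 0.00922) and overlapped CRLM1_NC. The hnRNPK libraries measured 7.13, 7.76 and 11.4 CPM in Ctrl_hnRNPK, 5.08, 4.52 and 7.76 CPM in CRLM1_hnRNPK and 3.90, 3.79 and 6.43 CPM in Antisense_hnRNPK.

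HOXA7, a central gene of the same cluster, moved the other way. It measured 1.65, 3.04 and 1.74 CPM in Ctrl_NC, 2.20, 2.86 and 2.60 CPM in CRLM1_NC and 3.53, 3.799 and 4.25 CPM in Antisense_NC. Each Antisense_NC library exceeded every Ctrl_NC and CRLM1_NC library (0.77 ± 0.23, adjusted p = 0.00340 against Ctrl_NC). With hnRNPK it measured 2.16, 3.15 and 3.63 CPM in Ctrl_hnRNPK, 2.20, 2.21 and 3.08 CPM in CRLM1_hnRNPK and 3.49, 4.21 and 2.65 CPM in Antisense_hnRNPK.

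HOXA9 measured 30.7, 32.4 and 38.2 CPM in Ctrl_NC, 41.2, 37.2 and 33.2 CPM in CRLM1_NC and 42.2, 43.7 and 42.1 CPM in Antisense_NC. Its rise in Antisense_NC was small and without overlap (0.29 ± 0.07, adjusted p = 0.000800, 1.22-fold). The hnRNPK libraries measured 37.9, 39.2 and 32.7 CPM in Ctrl_hnRNPK, 42.2, 33.3 and 29.1 CPM in CRLM1_hnRNPK and 39.8, 37.7 and 41.2 CPM in Antisense_hnRNPK, and the 3 groups overlapped.

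HOXB13, the most posterior HOXB gene and a factor of prostate and hindgut, measured 2.59, 3.52 and 3.52 CPM in Ctrl_NC, 5.08, 3.67 and 3.57 CPM in CRLM1_NC and 5.47, 4.69 and 6.04 CPM in Antisense_NC. It was 1.60-fold higher in Antisense_NC than in Ctrl_NC (0.68 ± 0.18, adjusted p = 0.00132). With hnRNPK it measured 2.59, 2.75 and 5.14 CPM in Ctrl_hnRNPK, 2.47, 2.36 and 4.86 CPM in CRLM1_hnRNPK and 3.33, 4.28 and 3.04 CPM in Antisense_hnRNPK.

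HOXB9, which acts in thoracic patterning, measured 31.0, 25.01 and 31.6 CPM in Ctrl_NC, 33.1, 31.3 and 36.7 CPM in CRLM1_NC and 36.9, 37.4 and 30.5 CPM in Antisense_NC. Antisense_NC and Ctrl_NC overlapped, with a log2 fold change of 0.22 ± 0.09, adjusted p = 0.0260. The call was lost without Ctrl_NC replicate 2 (0.11, adjusted p = 0.303), without Antisense_NC replicate 1 (adjusted p = 0.118) and without Antisense_NC replicate 2 (adjusted p = 0.107). The hnRNPK libraries measured 22.7, 25.5 and 32.9 CPM in Ctrl_hnRNPK, 23.3, 27.4 and 41.7 CPM in CRLM1_hnRNPK and 35.7, 43.6 and 35.8 CPM in Antisense_hnRNPK.

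HOXC13, a gene of hair and nail, had 3 counts in each Ctrl_NC library, at the limit of 3, and 17, 19 and 13 counts in Antisense_NC. In CPM it measured 0.165, 0.1201 and 0.134 CPM in Ctrl_NC, 0.315, 0.681 and 0.153 CPM in CRLM1_NC and 0.732, 0.802 and 0.665 CPM in Antisense_NC. The summed ratio of Antisense_NC to Ctrl_NC was 5.37, with a 95% counting interval of 2.61 to 12.4 (exact binomial on 49 and 9 counts). It entered the test only through its Antisense_NC counts, so these values are a description. The hnRNPK libraries measured 0.475, 0.162 and 0.252 CPM in Ctrl_hnRNPK, 0, 0.147 and 0.134 CPM in CRLM1_hnRNPK and 0.568, 0.421 and 0.701 CPM in Antisense_hnRNPK.

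**Figure D2:**
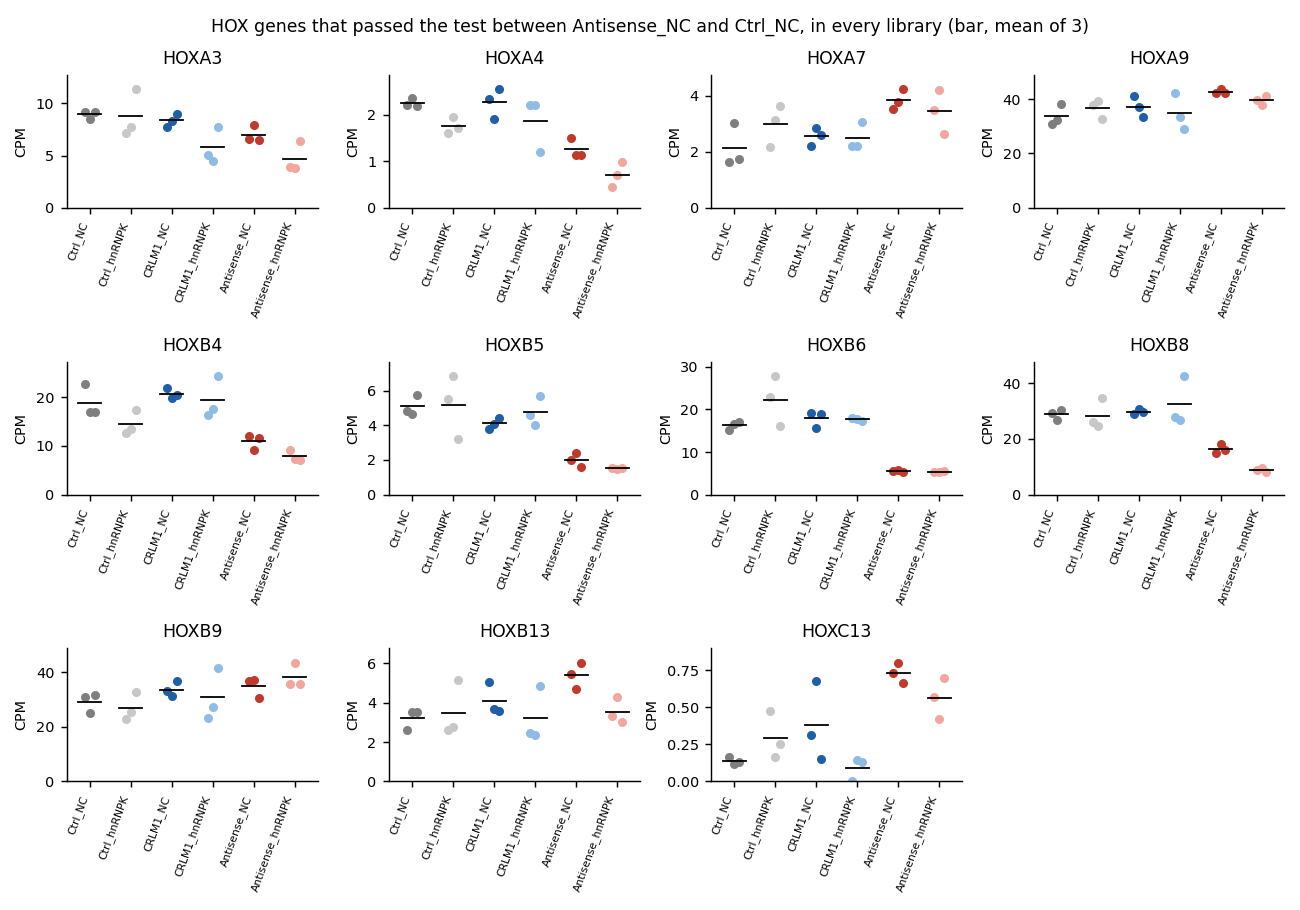
CPM of the 11 HOX genes that passed between Antisense_NC and Ctrl_NC, in all 18 libraries, with the group mean as a bar and axes from 0. HOXB5, HOXB6 and HOXB8 are lower in both antisense groups than in the other 4 groups, and HOXA7 is higher in Antisense_NC than in the other NC groups.

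The other expressed HOX genes did not pass between these groups. HOXA10, a gene of the uterus and lower trunk, measured 9.03, 9.28 and 9.27 CPM in Ctrl_NC, 9.17, 10.2 and 11.6 CPM in CRLM1_NC and 7.58, 8.65 and 8.96 CPM in Antisense_NC and, with hnRNPK, 9.03, 9.61 and 12.8 CPM in Ctrl_hnRNPK, 8.74, 7.32 and 7.50 CPM in CRLM1_hnRNPK and 8.98, 9.40 and 8.84 CPM in Antisense_hnRNPK. HOXA11, which acts in forearm and uterus, measured 2.92, 3.68 and 3.66 CPM in Ctrl_NC, 2.52, 2.90 and 3.31 CPM in CRLM1_NC and 3.40, 3.50 and 4.76 CPM in Antisense_NC and, with hnRNPK, 2.94, 2.71 and 5.79 CPM in Ctrl_hnRNPK, 2.65, 3.29 and 2.28 CPM in CRLM1_hnRNPK and 3.37, 3.79 and 4.56 CPM in Antisense_hnRNPK. Their log2 fold changes in Antisense_NC were -0.18 ± 0.13, adjusted p = 0.205, and 0.12 ± 0.20, adjusted p = 0.610. HOXA10 lay lower in Antisense_NC than in Ctrl_NC without overlap of the libraries, and HOXA11 overlapped. HOXB3, a hindbrain gene, measured 8.21, 6.64 and 6.33 CPM in Ctrl_NC, 9.17, 11.2 and 10.9 CPM in CRLM1_NC and 5.30, 6.54 and 6.602 CPM in Antisense_NC and, with hnRNPK, 5.96, 6.26 and 9.07 CPM in Ctrl_hnRNPK, 7.96, 8.75 and 10.2 CPM in CRLM1_hnRNPK and 5.11, 7.13 and 5.07 CPM in Antisense_hnRNPK. HOXB7, a trunk gene often active in tumours, measured 10.6, 10.0 and 10.6 CPM in Ctrl_NC, 16.22, 11.8 and 11.9 CPM in CRLM1_NC and 11.3, 10.3 and 11.003 CPM in Antisense_NC and, with hnRNPK, 11.4, 14.7 and 10.4 CPM in Ctrl_hnRNPK, 14.4, 12.1 and 17.1 CPM in CRLM1_hnRNPK and 11.7, 15.7 and 10.6 CPM in Antisense_hnRNPK. Both were higher in all CRLM1_NC libraries than in the other NC libraries. Neither differed between Antisense_NC and Ctrl_NC past the threshold (-0.24 ± 0.15, adjusted p = 0.156, and 0.02 ± 0.12, adjusted p = 0.915). HOXC9, a thoracic gene, measured 3.69, 2.96 and 3.70 CPM in Ctrl_NC, 4.22, 4.31 and 3.31 CPM in CRLM1_NC and 3.02, 2.58 and 4.504 CPM in Antisense_NC and, with hnRNPK, 2.85, 4.04 and 2.97 CPM in Ctrl_hnRNPK, 3.796, 3.59 and 5.22 CPM in CRLM1_hnRNPK and 2.39, 2.72 and 2.45 CPM in Antisense_hnRNPK. HOXD8, a trunk gene, measured 2.86, 2.00 and 1.34 CPM in Ctrl_NC, 2.47, 3.13 and 2.40 CPM in CRLM1_NC and 1.55, 1.77 and 1.23 CPM in Antisense_NC and, with hnRNPK, 3.89, 5.29 and 2.57 CPM in Ctrl_hnRNPK, 4.53, 3.93 and 3.35 CPM in CRLM1_hnRNPK and 1.82, 3.50 and 2.45 CPM in Antisense_hnRNPK. Antisense_NC overlapped Ctrl_NC for both genes. HOXC9 and HOXD8 gave -0.09 ± 0.21, adjusted p = 0.718, and -0.47 ± 0.29, adjusted p = 0.153, in Antisense_NC. Values below the threshold do not show that these genes were alike in the 2 lines.

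CRLM1_NC against Ctrl_NC asks what overexpression of CRLM1 did. Of 24 HOX genes tested, 2 were higher, HOXB3 and HOXB7, and 0 were lower by edgeR's quasi-likelihood test, with 3 at an unadjusted p under 0.05 and 1 call by DESeq2. Among all 14459 genes 34.3% passed, 16.9% higher and 17.4% lower. HOXB3 was 1.46-fold higher in CRLM1_NC without overlap of the groups (log2 fold change 0.55 ± 0.14, adjusted p = 0.00175), and HOXB7 1.27-fold (0.34 ± 0.12, adjusted p = 0.0288). None of the HOX genes reached 2-fold. The third gene at an unadjusted p under 0.05 was HOXB9 (0.19 ± 0.08, adjusted p = 0.0634). The HOXB7 call was lost without CRLM1_NC replicate 1 (0.18, adjusted p = 0.354), and without Ctrl_NC replicate 1, 2 or 3 (adjusted p = 0.0563, 0.1 and 0.0603). Where all 18 libraries shared 1 estimate of the spread, HOXB3 and HOXB7 had adjusted p = 0.210 and 0.467. The median log2 fold change was 0.17 over the HOX genes tested and 0.01 over all genes.

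CRLM1_NC against Antisense_NC compares the transcript with its antisense control. Of 26 HOX genes tested, 9 were higher in CRLM1_NC and 1 was lower, against 56.4% of 14364 genes, 26.9% higher and 29.5% lower. The higher genes were HOXA4, HOXA10, HOXB3, HOXB4, HOXB5, HOXB6, HOXB7, HOXB8 and HOXD8, and the lower one was HOXA7. HOXB genes made up 6 of the 9, of 9 HOXB genes tested, with a median log2 fold change of 0.80. HOXB6 was 3.34-fold higher in CRLM1_NC (1.74 ± 0.12, adjusted p = 5.86e-15) and HOXB5 2.10-fold (1.07 ± 0.22, adjusted p = 8.09e-05), the 2 genes at 2-fold or more, against 7.18% of all genes. HOXB4, HOXB8, HOXB3, HOXA4 and HOXD8 had log2 fold changes of 0.96 ± 0.11, 0.89 ± 0.09, 0.80 ± 0.14, 0.87 ± 0.28 and 0.84 ± 0.26. This comparison shares its antisense libraries with the first one and its CRLM1 libraries with the second, so the values are set side by side and not counted as independent.

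The calls of HOXA7, HOXA10 and HOXB7 were lost when single libraries were left out. HOXA7 (-0.55 ± 0.21, adjusted p = 0.0234) was lost without CRLM1_NC replicate 1 (adjusted p = 0.0916) or Antisense_NC replicate 3 (0.0906). HOXA10 (0.33 ± 0.13, adjusted p = 0.0272) was lost without CRLM1_NC replicate 3 (adjusted p = 0.143), Antisense_NC replicate 1 (0.132) or Antisense_NC replicate 2 (0.0509). HOXB7 (0.33 ± 0.12, adjusted p = 0.0205) was lost without CRLM1_NC replicate 1 (0.16, adjusted p = 0.291) or Antisense_NC replicate 2 (adjusted p = 0.0951). With the GC and length trend removed HOXA10 and HOXB7 were also lost (adjusted p = 0.0678 and 0.165), and 7 HOX genes were higher and 3 lower. Over all 14204 genes 53.5% then passed, 3733 higher and 3870 lower.

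**Figure D3:**
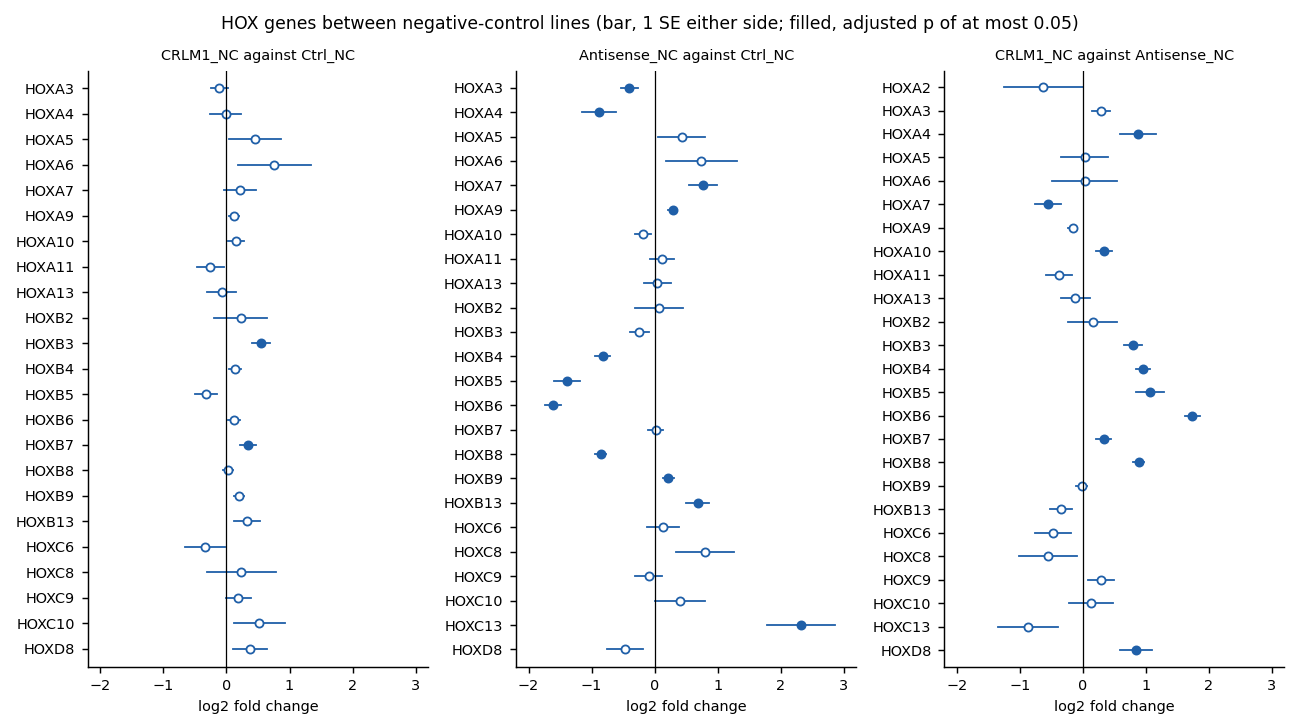
Log2 fold changes of the HOX genes tested between the NC groups, with bars of 1 SE either side and filled points for an adjusted p of at most 0.05. HOXB4, HOXB5, HOXB6 and HOXB8 lie left of 0 in Antisense_NC against Ctrl_NC and right of 0 in CRLM1_NC against Antisense_NC, while HOXB3 and HOXB7 are the filled points in CRLM1_NC against Ctrl_NC.

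Antisense_hnRNPK against Antisense_NC asks what the hnRNPK construct did in the antisense background. Of 26 HOX genes tested, 1 was higher (HOXD8) and 7 were lower, among them HOXA3, HOXA4, HOXB2, HOXB4, HOXB8 and HOXB13. All genes passed at 63.9% of 14501 tested, 33.4% higher and 30.5% lower. Of the lower genes 2 fell at least 2-fold, among them HOXB2, against 13.4% of all genes. HOXB2 met the filter on low counts through Antisense_NC (24, 21 and 13 counts, against 7, 7 and 14 in Antisense_hnRNPK). Its place among the lower genes is therefore no support for a fall. The median log2 fold change was -0.31 over the HOX genes and 0.04 over all genes. All genes with a GC content of 54% to 56% had a median of -0.39, and the HOX genes tested had a median GC content of 54.2%. With the GC and length trend removed, the medians were -0.11 over the HOX genes and -0.014 over all genes.

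HOXB8 had measured 15.1, 18.1 and 16.1 CPM in Antisense_NC and fell to 8.71, 9.59 and 8.14 CPM, a log2 fold change of -0.90 ± 0.13, adjusted p = 2.54e-05. The 2 groups did not overlap. HOXB2, a hindbrain gene, measured 0.826, 0.560 and 1.03 CPM in Ctrl_NC, 1.39, 0.953 and 0.459 CPM in CRLM1_NC and 1.03, 0.886 and 0.665 CPM in Antisense_NC. With hnRNPK it measured 0.648, 0.768 and 0.806 CPM in Ctrl_hnRNPK, 0.412, 0.885 and 0.803 CPM in CRLM1_hnRNPK and 0.265, 0.227 and 0.545 CPM in Antisense_hnRNPK, and its log2 fold change in the antisense background was -1.34 ± 0.42, adjusted p = 0.0122. Because HOXB2 met the filter through Antisense_NC, these values are a description.

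HOXA3, HOXA4, HOXB4 and HOXB13 had log2 fold changes of -0.59 ± 0.20, -0.83 ± 0.34, -0.48 ± 0.15 and -0.60 ± 0.19 (adjusted p = 0.0186, 0.0484, 0.0138 and 0.0136). HOXD8 was 1.70-fold higher (0.77 ± 0.28, adjusted p = 0.0282), and its printed promoter was the richest in GC of the 4. Replicate 3 of Antisense_hnRNPK was the highest of its group for HOXA3 (6.43 CPM against 3.90 and 3.79), HOXA4 and HOXB2. In 6 of these 8 genes leaving out 1 library ended the call. The call was lost for HOXA3 without Antisense_NC replicate 2 (adjusted p = 0.0918) or Antisense_hnRNPK replicate 1 (0.0874), and for HOXB13 without Antisense_NC replicate 3 (0.0634) or Antisense_hnRNPK replicate 1 (0.0508). It was lost for HOXB2 without replicate 1 of Antisense_NC (0.0575) or of Antisense_hnRNPK (0.0552), and for HOXB4 without Antisense_NC replicate 1 (0.0712) or 3 (0.0545). HOXD8 was lost without Antisense_NC replicate 1 (0.0677) or 3 (0.114) and without Antisense_hnRNPK replicate 2 (0.44, adjusted p = 0.180). HOXA4 was lost without Antisense_NC replicate 1, 2 or 3 (adjusted p = 0.174, 0.0710 and 0.0728) and without Antisense_hnRNPK replicate 1 or 2 (0.189 and 0.0658). HOXB8 passed under all 13 alternatives run.

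GC content moved with the hnRNPK differences of all genes. Spearman's rho of log2 fold change with GC content was -0.71 across 14337 genes in the antisense background, -0.71 across 14433 in the Ctrl background and -0.63 across 14235 in the CRLM1 background (genes are not independent). The HOX genes tested had GC contents of 43.7% to 60.1% with a median of 54.2%, against 48.8% over all genes of the antisense comparison. With the GC and length trend removed, 3 HOX genes were higher (HOXA10, HOXB9 and HOXD8) and 3 lower, among them HOXA9 and HOXB8, in Antisense_hnRNPK, of 26 tested. Over all genes 39.3% then passed, 17.1% higher and 22.2% lower, a larger share than the 6 of 26 HOX genes. HOXB8 then had a log2 fold change of -0.49 ± 0.12, adjusted p = 0.00633 and HOXD8 of 1.03 ± 0.28, adjusted p = 0.0110. HOXA3, HOXA4, HOXB2, HOXB4 and HOXB13 were lost (adjusted p = 0.555, 0.364, 0.0795, 0.862 and 0.637). The part of GC content in the hnRNPK results was not tested beyond this.

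**Figure D4:**
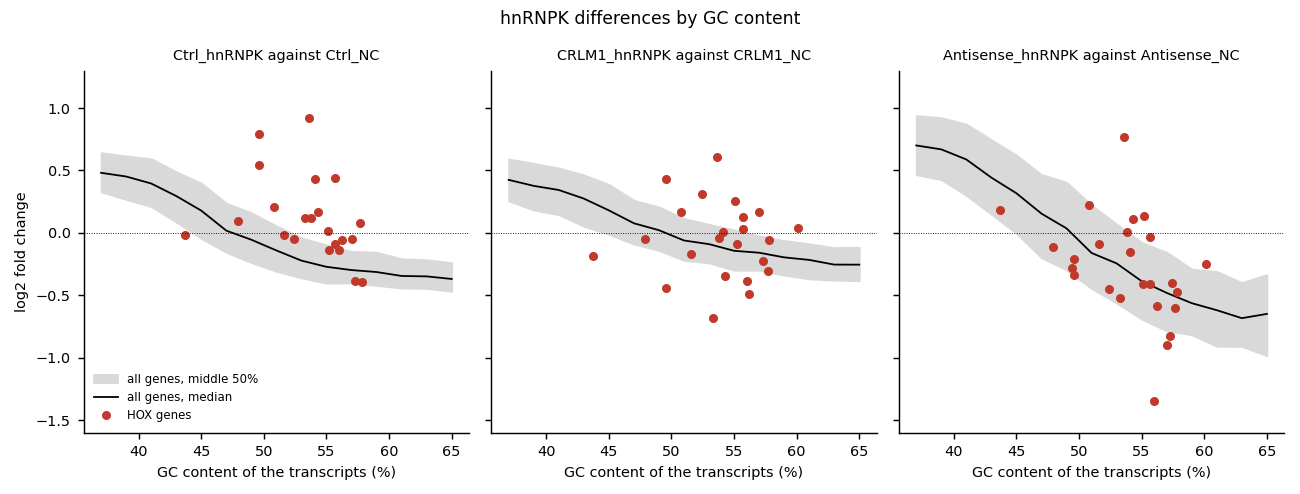
Log2 fold change with the hnRNPK construct against transcript GC content, for the 3 backgrounds. The line is the median of all genes in bins of 2 percentage points, the band their middle 50%, and red points are HOX genes. The medians fall with GC content, and HOXA4, HOXB2 and HOXB8 in the antisense background are among the points below the band.

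In the Ctrl background the hnRNPK construct gave 0 HOX calls of 23 tested by edgeR's quasi-likelihood test and 0 by DESeq2, with 1 at an unadjusted p under 0.05 (HOXD8). Over all 14607 genes 0% passed by edgeR, with 2246 at an unadjusted p under 0.05 and 1 call by DESeq2. Without Ctrl_hnRNPK replicate 3, 24 HOX genes were tested, of which 3 were higher (HOXB6, HOXB7 and HOXD8) and 1 was lower (HOXB4). Of all 15004 genes 59.6% then passed, 29.6% higher and 29.9% lower. HOXD8 had a log2 fold change of 0.92 ± 0.36, adjusted p = 0.320 with all libraries, and of 1.19 ± 0.27, adjusted p = 0.00111 without the third. Without it HOXB6 gave 0.67 ± 0.11, adjusted p = 7.25e-05, HOXB7 gave 0.36 ± 0.14, adjusted p = 0.0355 and HOXB4 gave -0.49 ± 0.14, adjusted p = 0.00545. Ctrl_hnRNPK replicates 1 and 2 had 23.02 and 27.9 CPM of HOXB6 and the third 16.0, inside the Ctrl_NC range of 15.1 to 17.0.

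The CRLM1 background gave 0 HOX calls of 24 tested by edgeR and 0 by DESeq2, with 1 at an unadjusted p under 0.05 (HOXD8). Over all 14394 genes 0% passed by edgeR, with 1332 at an unadjusted p under 0.05 and 8 calls by DESeq2. Without CRLM1_hnRNPK replicate 3, 1 of 24 HOX genes was higher (HOXD8) and 3 were lower (HOXA3, HOXB9 and HOXB13), against 58.5% of 14685 genes, 29.5% higher and 29.1% lower. HOXD8 gave 0.61 ± 0.24, adjusted p = 0.533 with all libraries and 0.71 ± 0.23, adjusted p = 0.00979 without the third. HOXA3 gave -0.75 ± 0.17, adjusted p = 0.000453, HOXB9 gave -0.36 ± 0.10, adjusted p = 0.00203 and HOXB13 gave -0.72 ± 0.24, adjusted p = 0.0127 without it. For HOXB9 the third CRLM1_hnRNPK library had 41.7 CPM against 23.3 and 27.4, and for HOXB13 it had 4.86 CPM against 2.47 and 2.36.

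**Figure D5:**
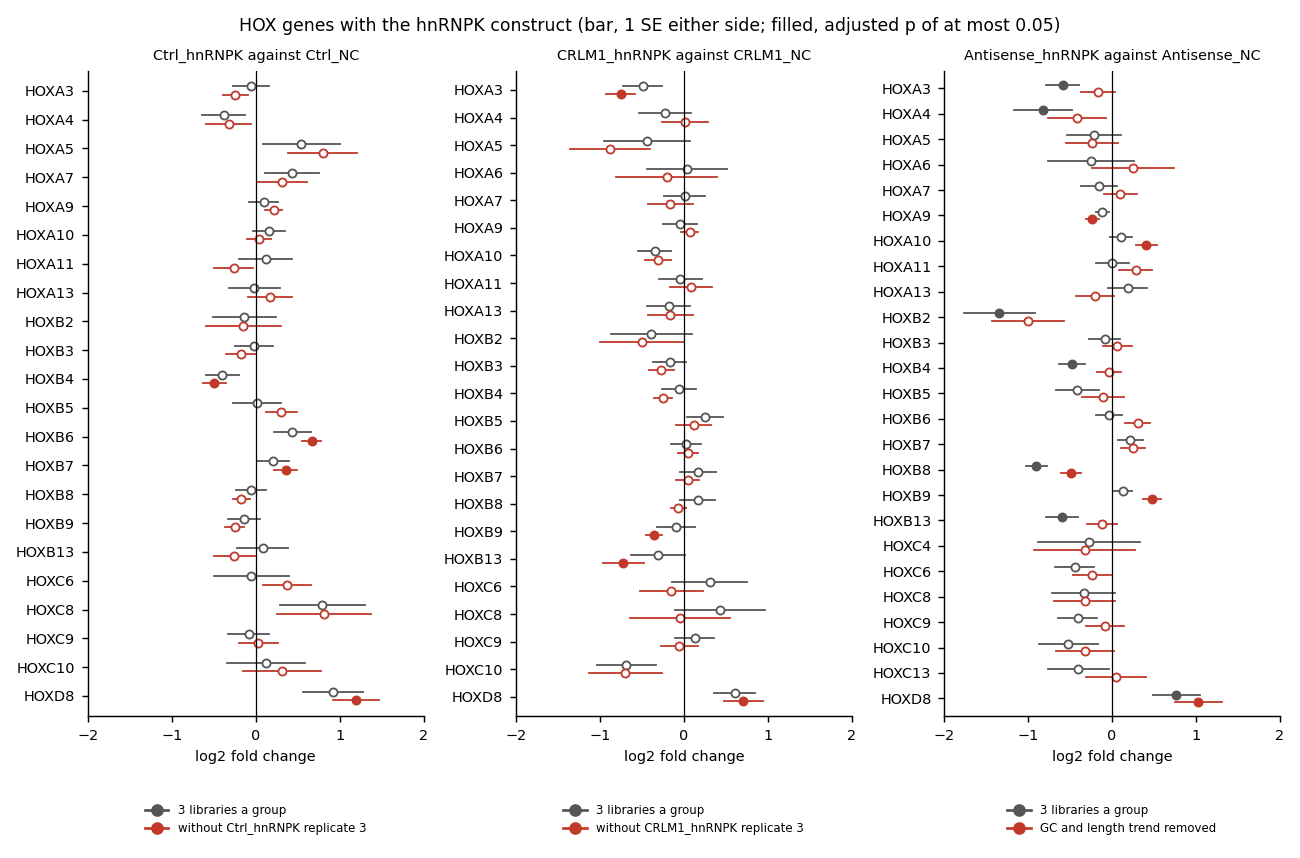
Log2 fold changes of HOX genes with the hnRNPK construct in the 3 backgrounds, with bars of 1 SE either side and filled points for an adjusted p of at most 0.05. Grey shows all 3 libraries a group, and red the fit without the third hnRNPK library (Ctrl and CRLM1) or with the GC and length trend removed (Antisense). HOXD8 lies right of 0 in all 3 panels, and in the Ctrl and CRLM1 backgrounds the filled points are red.

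Whether the hnRNPK effect differed between backgrounds was tested by an interaction term. Antisense minus Ctrl gave 0 of 26 HOX genes and 0% of 15346 genes by edgeR, with 4 HOX genes at an unadjusted p under 0.05 and 1 by DESeq2 (2179 and 267 over all genes). The DESeq2 call was HOXB8, for which edgeR gave -0.88 ± 0.21, adjusted p = 0.129. Its call was reached in 6 of 20 alternatives, among them without Ctrl_hnRNPK replicate 3 (-0.75, adjusted p = 0.00755), with adjusted p values between 0.00509 and 0.331 over the 20. Without the third library of every hnRNPK group, HOXB6 (-0.73 ± 0.19, adjusted p = 0.0116) and HOXB8 (-0.67 ± 0.16, adjusted p = 0.00509) passed, against 16.0% of 15695 genes. CRLM1 minus Ctrl gave 0 of 24 HOX genes and 0% of 15188 genes by edgeR, with 0 HOX genes at an unadjusted p under 0.05 and 0 by DESeq2 (221 and 0 over all genes). Without the third libraries HOXB6 passed there (-0.59 ± 0.16, adjusted p = 0.0402), against 3.45% of 15485 genes. For HOXD8, higher with hnRNPK in the antisense background, the difference was -0.19 ± 0.48, adjusted p = 0.895 for Antisense minus Ctrl and -0.35 ± 0.45, adjusted p = 1.00 for CRLM1 minus Ctrl.

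Noncoding genes of the clusters were described from a fixed list of 20, of which 8 were tested between Antisense_NC and Ctrl_NC and 6 were lower, 0 higher, each at least 2-fold. Over all genes 66.5% passed, 32.2% lower, and 14.1% passed at 2-fold or more. HOXA11-AS met the filter on low counts through Ctrl_NC (14, 21 and 11 counts, against 4, 10 and 6 in Antisense_NC). HOXB-AS1 also did (39, 27 and 20, against 6, 20 and 13), as did HOXB-AS3 (20, 36 and 17, against 13, 16 and 5). So did HOXD-AS2 (45, 37 and 18, against 21, 15 and 8). Their places among the 6 are therefore no support for a fall. HOTAIRM1, a long noncoding RNA of the HOXA cluster, measured 14.2, 15.2 and 13.6 CPM in Ctrl_NC, 9.35, 7.85 and 7.04 CPM in CRLM1_NC and 3.27, 3.88 and 3.84 CPM in Antisense_NC. The 3 lines did not overlap, and Antisense_NC was lower than Ctrl_NC (-2.02 ± 0.14, adjusted p = 1.13e-15). CRLM1_NC was also lower than Ctrl_NC (-0.84 ± 0.12, adjusted p = 6.72e-07). HOXA11-AS, HOXB-AS1, HOXB-AS3, HOXC-AS1 and HOXD-AS2 had log2 fold changes of -1.25 ± 0.48, -1.23 ± 0.41, -1.16 ± 0.41, -1.07 ± 0.28 and -1.28 ± 0.39 in Antisense_NC. With the GC and length trend removed 4 were lower and 1 higher, of which 1 reached 2-fold, against 12.2% of all genes at 2-fold or more. In CRLM1_NC against Ctrl_NC 2 of 8 were lower (HOTAIRM1 and HOXD-AS2) and 0 higher, where 34.3% of all genes passed. With the trend removed 1 of 8 was lower and 0 higher in that comparison, where 33.8% of all genes passed. In CRLM1_NC against Antisense_NC 3 of 8 were higher (HOTAIRM1, HOXA11-AS and HOXB-AS3) and 0 lower, where 56.4% of all genes passed. HOXA11-AS met the filter there through its CRLM1_NC counts (16, 22 and 15), and HOXB-AS3 through its own (52, 34 and 23). The rises of HOXA11-AS and HOXB-AS3 are therefore no support either. With hnRNPK in the antisense background HOXA10-AS was higher (0.72 ± 0.26, adjusted p = 0.0257) and HOXC-AS1 lower (-0.95 ± 0.40, adjusted p = 0.0474), of 7 tested. Of all genes 63.9% passed there. HOTAIR, HOTTIP and HAGLR had group means of at most 0.0733 FPKM. These genes overlap or face HOX genes, so shared reads are possible.

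CDX2, the intestinal regulator, was the gene of 2 CDX and ParaHox genes in the tables that was tested. It measured 6.72, 5.08 and 6.69 CPM in Ctrl_NC, 7.28, 7.85 and 6.93 CPM in CRLM1_NC and 15.7, 16.6 and 13.9 CPM in Antisense_NC. Antisense_NC lay above both other lines (1.28 ± 0.13, adjusted p = 3.90e-11 against Ctrl_NC), and CRLM1_NC against Ctrl_NC gave 0.25 ± 0.15, adjusted p = 0.226. With the hnRNPK construct it measured 3.41, 2.34 and 8.46 CPM in Ctrl_hnRNPK, 3.52, 3.74 and 7.32 CPM in CRLM1_hnRNPK and 7.96, 9.07 and 9.001 CPM in Antisense_hnRNPK, lower in the antisense background (-0.83 ± 0.12, adjusted p = 4.42e-05). Over all 3 libraries it missed the threshold in the Ctrl (-0.42 ± 0.40, adjusted p = 0.519) and CRLM1 (-0.56 ± 0.29, adjusted p = 0.544) backgrounds, and without the third hnRNPK library it was lower in both (-1.07 ± 0.22, adjusted p = 0.000468 and -0.97 ± 0.19, adjusted p = 6.01e-05). With the GC and length trend removed it passed in none of the 3 backgrounds (adjusted p = 0.0945, 0.806 and 0.308 in antisense, Ctrl and CRLM1).

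TALE cofactors were tested for 9 listed genes. Between Antisense_NC and Ctrl_NC 4 were higher and 4 lower, where 66.5% of all genes passed, and with the GC and length trend removed 2 were higher and 3 lower, where 64.7% did. MEIS2 was higher (1.13 ± 0.23, adjusted p = 3.83e-05) and PBX3 lower (-1.06 ± 0.16, adjusted p = 3.96e-07), the 2 at 2-fold or more, of which PBX3 stayed so with that trend removed (-1.17 ± 0.16, adjusted p = 2.24e-08, against 0.85 ± 0.23, adjusted p = 0.00114 for MEIS2). PBX3, a partner of HOX proteins on DNA, measured 6.45, 7.76 and 7.44 CPM in Ctrl_NC, 7.59, 6.08 and 6.78 CPM in CRLM1_NC and 3.62, 3.46 and 3.68 CPM in Antisense_NC, with Antisense_NC below the other lines. MEIS2 measured 2.20, 1.64 and 1.56 CPM in Ctrl_NC, 4.04, 2.63 and 2.91 CPM in CRLM1_NC and 4.48, 4.39 and 3.22 CPM in Antisense_NC. In CRLM1_NC against Ctrl_NC 1 TALE gene was higher (MEIS2, 0.82 ± 0.25, adjusted p = 0.00917) and 2 were lower, where 34.3% of all genes passed. In CRLM1_NC against Antisense_NC 3 were higher and 2 lower, where 56.4% did. With hnRNPK in the antisense background 2 were higher and 3 lower, where 63.9% of all genes passed. With the trend removed 0 were higher and 2 lower, where 39.3% of all genes passed. In the Ctrl and CRLM1 backgrounds 0 of 9 passed by edgeR, with 3 and 0 at an unadjusted p under 0.05. Without the third hnRNPK library 7 of 9 passed in the Ctrl and 5 of 9 in the CRLM1 background, where 59.6% and 58.5% of all genes did.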

How the data were processed

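The authors sequenced KAPA RNA HyperPrep libraries as Illumina paired ends, filtered reads with the FASTX-Toolkit and aligned them to GRCh38 with TopHat2, allowing 4 mismatches. They deposited read counts per gene of uniquely mapped reads and FPKM (counts per transcript length and depth) for 18 libraries on Gencode v23. The use of strand in counting is not given in the sources used here. All value columns were matched to a sample (0 were not). Genes were tested on the deposited counts with edgeR 4.0.16 in R 4.3.3 (TMM scaling, its default filter on low counts, robust quasi-likelihood F test), each pair of groups fitted alone, and by an interaction term for differences between backgrounds. P-values were adjusted by Benjamini-Hochberg over all genes tested, and SE is the log2 fold change divided by the root of F. CPM were scaled by TMM over all libraries. Levels between genes were compared in FPKM. Alternatives were DESeq2 1.42.0, no filter, 1 fit of all libraries, a replicate block, removal of a GC and length trend (splines with 5 degrees of freedom), and each library left out. The fits were tested on simulated data. Members and gene lists were chosen with earlier results of these data known. Named with their values in every library were the 15 expressed HOX genes and each other HOX gene that passed a test. The values of 1 HOX gene are not reported here or drawn, though it counts in the totals. Total counts of 19732681 to 27039520 per library set the precision, and intervals and limits of 3 counts cover counting error only. Gene positions are from Gencode v44 and promoters from RefSeq (GRCh38.p14).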

Additional observations from a re-analysis of the deposited data

How the results depend on the processing

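Of 31 HOX calls between pairs of groups, 15 kept their direction and stayed past the threshold under all 13 alternatives run for each, and none was reversed. The 15 include HOXC13 between Antisense_NC and Ctrl_NC, which entered the test through its Antisense_NC counts alone and is no support. Over their 403 refits, 339 kept the call and 64 lost it. Between CRLM1_NC and Ctrl_NC 2 HOX genes passed, against 1 by DESeq2, 0 in 1 fit of all libraries and 1 to 3 with single libraries left out. The 1 fit of all libraries gave 6 in place of 10 between CRLM1_NC and Antisense_NC, 7 in place of 11 between Antisense_NC and Ctrl_NC, and 4 in place of 8 between Antisense_hnRNPK and Antisense_NC. With single libraries left out these 3 counts ran from 9 to 11, 10 to 12 and 4 to 9. In the Ctrl and CRLM1 backgrounds 0 HOX genes passed with hnRNPK, and 0 to 4 with single libraries left out, where both counts of 4 were without the third hnRNPK library. The difference of the hnRNPK effect, Antisense minus Ctrl, gave 0, against 1 each by DESeq2, without the filter on low counts, with the GC and length trend removed, and with that removal plus the replicate block, 2 without the third hnRNPK libraries, and 0 to 2 with single libraries left out. CRLM1 minus Ctrl gave 0, and 1 without the third hnRNPK libraries. The cause of these changes was not tested. The share of all genes that passed is not given here for the 1 fit of all libraries. It is also not given for most fits with a library left out. These counts therefore do not set HOX genes apart from other genes. The number of expressed HOX genes was 15, and 27 at a mean FPKM of 0.1.

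Replicate numbers did not pair the samples, since deviations of same-numbered libraries correlated at -0.14 to 0.0935. With the replicate block 3, 11, 11 and 7 HOX genes passed between CRLM1_NC and Ctrl_NC, CRLM1_NC and Antisense_NC, Antisense_NC and Ctrl_NC, and Antisense_hnRNPK and Antisense_NC, and 0 in the other hnRNPK comparisons. With the block and the GC and length trend removed, 5 passed between Antisense_hnRNPK and Antisense_NC. The share of all genes that passed with the block is not given here, so these counts do not set HOX genes apart from other genes. Depth limits the statements on HOX genes of few counts, of which HOXD3, HOXD10 and HOXD12 never exceeded 3 counts.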

Other observations

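Protein-coding genes that flank the HOX clusters were described from a list of 12, of which 8 were tested. Between Antisense_NC and Ctrl_NC 1 was higher (KIAA1715, 0.23 ± 0.07, adjusted p = 0.00592) and 4 were lower by edgeR's quasi-likelihood test, of which SKAP2, an adaptor gene beside the HOXA cluster, gave -0.76 ± 0.09, adjusted p = 1.19e-09 (log2 fold change ± SE) and SKAP1, beside the HOXB cluster, gave -0.58 ± 0.11, adjusted p = 1.07e-05. Over all genes 66.5% passed. With the GC and length trend removed 6 were lower and 0 higher, where 64.7% of all genes passed. KIAA1715 then turned to -0.16 ± 0.07, adjusted p = 0.0403. SKAP2 measured 29.4, 27.3 and 30.3 CPM in Ctrl_NC, 23.004, 21.6 and 20.5 CPM in CRLM1_NC and 19.0, 18.03 and 16.0 CPM in Antisense_NC. SKAP1 measured 15.6, 17.97 and 19.7 CPM in Ctrl_NC, 19.5, 17.5 and 18.9 CPM in CRLM1_NC and 11.5, 11.9 and 13.5 CPM in Antisense_NC. Antisense_NC was the lowest of the 3 lines for both genes. Between CRLM1_NC and Ctrl_NC 1 flanking gene was higher and 4 were lower, where 34.3% of all genes passed. Between CRLM1_NC and Antisense_NC 3 were higher and 2 lower, where 56.4% of all genes passed.

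With the hnRNPK construct in the antisense background 6 of the 8 flanking genes were higher and 0 lower, where 33.4% of all genes were higher, while 1 HOX gene was higher and 7 were lower. With the GC and length trend removed 3 flanking genes were higher and 0 lower, and 3 HOX genes were higher and 3 lower. Of all genes 17.1% were then higher and 22.2% lower. Without the third hnRNPK library 5 of the 8 flanking genes were higher in each of the Ctrl and CRLM1 backgrounds, where 29.6% and 29.5% of all genes were. MTX2, a mitochondrial import gene beside the HOXD cluster, gave 0.88 ± 0.10, adjusted p = 3.06e-06, and CBX5, which encodes the heterochromatin protein HP1 alpha near the HOXC cluster, gave 0.84 ± 0.11, adjusted p = 1.09e-05. With that trend removed they gave 0.46 ± 0.09, adjusted p = 0.00166 and 0.31 ± 0.09, adjusted p = 0.0204.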
